A study of Mus musculus with 24 samples.

Results

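The transcripts of 35 extracellular matrix genes, most of them components of basement membranes, were examined in single nuclei of the mouse brain. The genes were picked by symbol from a list and all 35 were found among the 32288 genes listed. They code for 6 type IV collagen chains, 5 fibrillar collagen chains, 3 type VI collagen chains, 2 multiplexin collagens, 9 laminin chains, 4 nidogens and heparan sulfate proteoglycans, fibronectin, fibrillin and fibulin (3 genes), 2 small leucine-rich proteoglycans, and the collagen galactosyltransferase Colgalt2. A basement membrane is a thin sheet in which a laminin network and a type IV collagen network are joined by nidogens and by heparan sulfate proteoglycans such as perlecan and agrin. In the brain, endothelial and mural cells deposit the basement membrane of capillaries, and the end-feet of astrocytes and the fibroblasts of the meninges and larger vessels add a second, parenchymal or perivascular layer. Fibrillar collagens, fibronectin, decorin and lumican belong mainly to the interstitial matrix, which in the brain is largely confined to the meninges and the walls of larger vessels.

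Nuclei came from 6 control mice (Pdgfb ret/wt) and 6 mutants (Pdgfb ret/ret) of the strain B6.Pdgfbtm3Cbet, and every mouse gave 1 deep brain library and 1 library of the cortex, 24 in all. The ret allele lacks the retention motif that holds PDGF-B at the cell surface and in the matrix. It is carried from the germ line, so no cell type was targeted, and the controls carry 1 copy of it. No mouse without the allele was included. The 6 mutants and controls 1 to 5 were female and control 6 was male. The protocol text gives an age of 5 months for all mice. By the age labels, mice 1 to 3 of each genotype were aged 5 months and 3, 0 and 18 days, mice 4 of each were aged 4 months and 24 days, mutant 5 and control 6 were aged 4 months and 7 days, and mutant 6 and control 5 were aged 4 months and 9 days. All mice were perfused before dissection. The mutant is a model of brain vessel calcification, in which vessels of the deep brain (pallidum, thalamus, hypothalamus, midbrain and pons) are known to calcify and those of the cortex, which included the hippocampus, are not.

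Counts are UMIs (unique molecular identifiers, 1 for each captured transcript), and levels are given as CPM, the UMIs of a gene per 1000000 UMIs of the same library and cell class. After filtering, 124958 deep brain and 79967 cortical nuclei were kept, from libraries of 64736053 to 96459036 and 23625232 to 95605387 UMIs. The median nucleus held 3547 to 7315 UMIs in the deep brain and 804 to 8054 in the cortex, where 7 of 12 libraries lay under 1500. Cell classes were built by clustering without the 35 genes and were named from other markers, since nuclei carried no deposited cell type. There were 781 endothelial, 243 mural, 1908 fibroblast and 12072 astrocyte nuclei. In each class the markers of its own list were summed to the most: in the deep brain, 21225 to 28376 CPM of endothelial markers in endothelial nuclei of controls, 15266 to 23736 CPM of mural markers in mural nuclei, 11085 to 12578 CPM of fibroblast markers in fibroblast nuclei and 23488 to 28798 CPM of astrocyte markers in astrocyte nuclei. None of these own markers was at 0. Endothelial nuclei also held mural markers at 3091 to 5842 CPM in controls. Mural nuclei were scarce. A deep brain library held 16 to 35 of them in controls and 3 to 11 in mutants, and in the cortex 1 control library alone reached the 5 nuclei required, so mural nuclei were compared in the deep brain only. In UMIs summed over many nuclei, fewer cells of a type and less RNA per cell cannot be told apart.

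The 6 type IV collagen genes lie as 3 head-to-head pairs, each transcribed outward from a shared stretch of DNA. By GENCODE M21 (GRCm38), the starts are 21 bases apart for Col4a1 and Col4a2 on chromosome 8, where the transcripts overlap, 72 bases apart for Col4a3 and Col4a4 on chromosome 1, and 1309 bases apart for Col4a5 and Col4a6 on chromosome X. Promoter windows in RefSeq (GRCm38.p6) were found for 22 of the 35 genes. The 250 bases before the start of Col4a6 and 216 bases before that of Col4a5, which ends 34 bases short of the start so as to hold no exon, are shown because the shares of this pair differed between cell classes. The 250 bases of Lama2 are shown because it was the laminin chain with the most UMIs. The starts of these windows are those of RefSeq, which can differ from those of GENCODE. The Lama2 bases lie inside the gene as GENCODE gives it (chr10:26980036-27619758). The bases shown for Col4a5 end directly before its GENCODE start (141475385). Capitals mark a searched motif: CCAAT in Col4a5, and CCGCCC, the other strand of GGGCGG, in Col4a6. The whole 250 bases before the start of Col4a5 also held 1 match to GGGCGG, which the bases shown do not contain.
Col4a5, chrX:141475169-141475384, plus strand: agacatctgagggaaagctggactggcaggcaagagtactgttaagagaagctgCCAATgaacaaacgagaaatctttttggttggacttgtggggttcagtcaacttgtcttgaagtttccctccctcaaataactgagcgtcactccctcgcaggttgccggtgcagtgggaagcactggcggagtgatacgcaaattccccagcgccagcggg
Col4a6, chrX:141474077-141474326, minus strand: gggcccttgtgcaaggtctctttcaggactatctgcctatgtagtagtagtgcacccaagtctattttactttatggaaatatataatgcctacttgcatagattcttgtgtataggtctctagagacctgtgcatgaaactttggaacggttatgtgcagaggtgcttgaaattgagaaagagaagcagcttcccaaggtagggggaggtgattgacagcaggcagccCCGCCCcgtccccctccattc
Lama2, chr10:27616943-27617192, minus strand: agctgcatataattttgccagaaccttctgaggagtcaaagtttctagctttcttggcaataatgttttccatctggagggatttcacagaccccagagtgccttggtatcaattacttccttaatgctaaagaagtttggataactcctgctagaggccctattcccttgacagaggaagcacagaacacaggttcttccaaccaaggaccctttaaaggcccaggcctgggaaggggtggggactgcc
Searched on both strands in the 250 bases before the start, GGGCGG, the letters of a GC box, occurred in 14 of the 22 members and in 32.7% of all 32851 promoters. CCAAT occurred in 7 of the 22 and in 33.8% of all, and TATAAA in 1 (Col3a1) and in 12.4%. A member was counted if any of its windows held the motif, and Agrn, Col18a1, Col6a2 and Fbln1 had 2 windows each. The shares of all promoters count single windows, so the units differ. The Lama2 window held none of these letters. A match is a description of the sequence and not a site of binding.

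Fibroblast, mural and endothelial nuclei held the most matrix transcript per UMI. Over all libraries the 35 genes together made up 7687 CPM in fibroblast, 5617 CPM in mural, 3813 CPM in endothelial and 1308 CPM in astrocyte nuclei, against 586 CPM in oligodendrocyte precursors, 552 CPM in oligodendrocytes, 424 CPM in neurons and 288 CPM in microglia and macrophages. The vascular classes were few, however, and neurons, which gave 79.8% of all UMIs, also gave 65.4% of the 730014 UMIs of the 35 genes. Fibroblasts gave 6.84%, astrocytes 7.80%, endothelial nuclei 1.20% and mural nuclei 0.336%. The share in neurons ran from 10.4% for Lamb2 and 11.0% for Col4a6 to 90.3% for Lamb1 and 92.5% for Col6a1, so sums over all nuclei of a library rest mostly on neurons for some members and not for others. By mean CPM among the 4 classes in the deep brain, 18 members were highest in fibroblast, 11 in mural and 6 in endothelial nuclei, and none in astrocytes. Levels between classes are given as a description without a test, since the classes were built from the same nuclei.

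**Figure D1:**
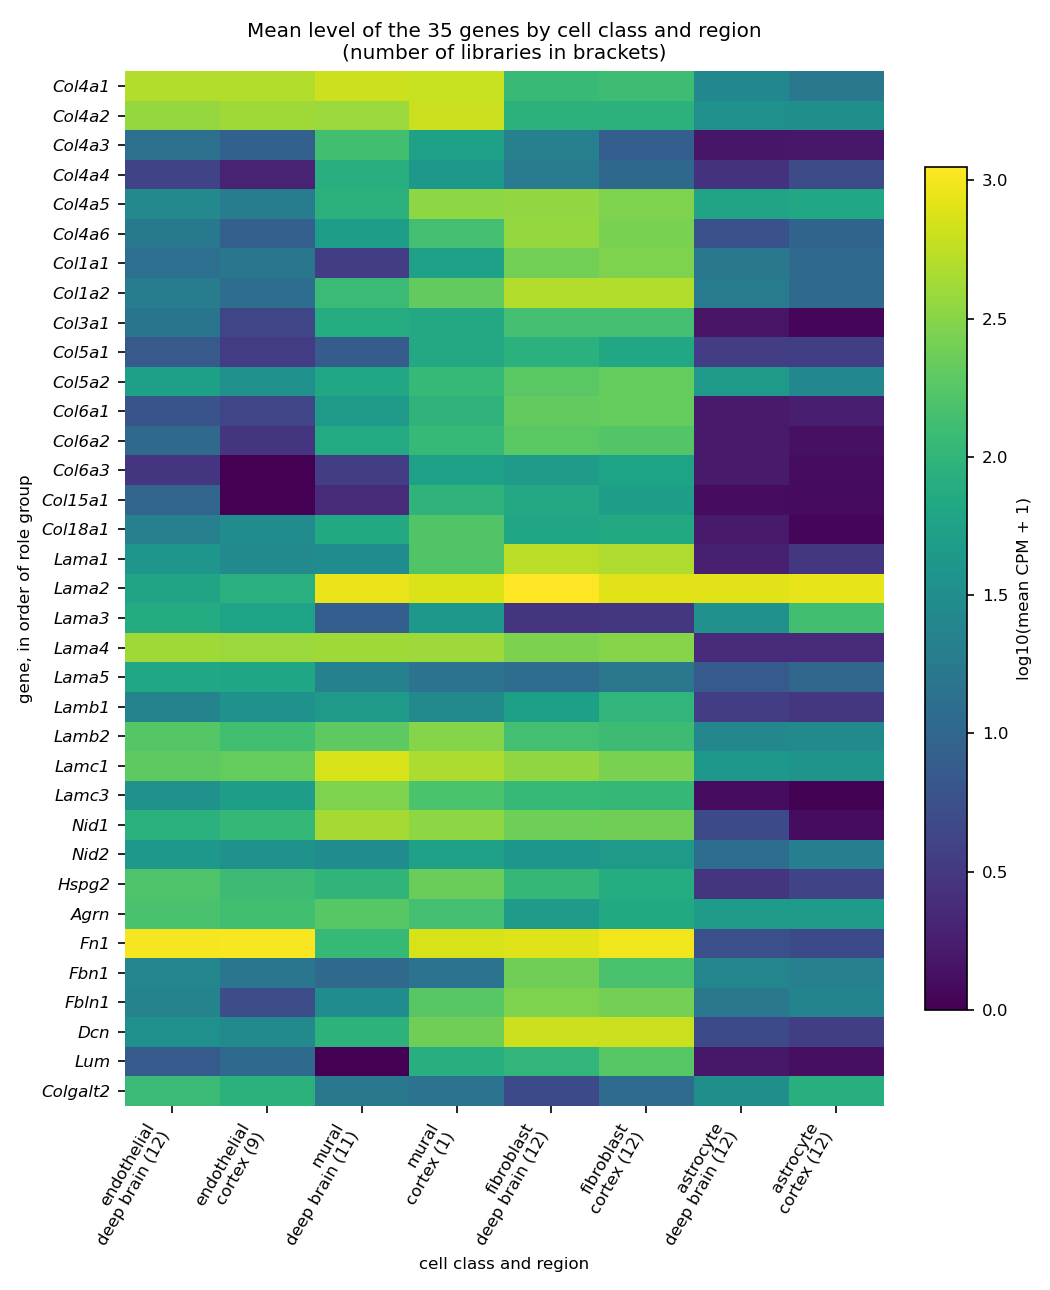
Mean level of each of the 35 genes (rows, ordered by role) in the 4 cell classes of both regions (columns, number of libraries in brackets), as colour on the scale log10(mean CPM + 1). Lama2 was high in mural, fibroblast and astrocyte nuclei (918, 1116 and 818 CPM in the deep brain) and low in endothelial nuclei (58.5 CPM), and Fn1 was high in endothelial nuclei (1007 CPM). The mural column of the cortex rests on 1 library.

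Among the type IV collagen chains, Col4a1 and Col4a2, the 2 chains of the common capillary network, were highest in mural and endothelial nuclei. Their mean levels in the deep brain were 654 ± 393 CPM (SD, n = 11) and 389.6 ± 253 CPM in mural nuclei, 496 ± 176 CPM (SD, n = 12) and 368 ± 87.2 CPM in endothelial nuclei, and 25.2 and 32.8 CPM in astrocytes. Col4a3 and Col4a4, chains known from the glomerular basement membrane, were highest in mural nuclei as well, at 133 and 80.4 CPM, but from only 42 and 24 UMIs. Col4a5 and Col4a6, the chains of a network typical of smooth muscle and epithelia, were highest in fibroblasts, at 356 and 365 CPM. Col4a5 (chrX:141475385-141689234), the member of this group with the most UMIs in the 4 classes, ranged over 266 to 419.8 CPM (median 342) in the 6 control deep brain libraries and 258 to 472 CPM (median 376) in the 6 mutant libraries of fibroblast nuclei, and over 143 to 439 CPM (median 294) and 213 to 396 CPM (median 282) in the cortex. These ranges overlapped. The balance in UMIs within the Col4a5 and Col4a6 pair, not divided by gene length (214 and 309 kb), differed by class. Col4a5 made up 49.3% of the UMIs of the pair in deep brain fibroblasts (44.1 to 60.9% over 12 libraries), but 92.3% in astrocytes (87.2 to 97.2%) and 88.5% in neurons (82.8 to 94.1%), and no deep brain fibroblast library reached the range of deep brain astrocytes or neurons. In the cortex the ranges overlapped, with 43.5 to 81.5% in fibroblasts, 76.0% or more in astrocytes and 71.0 to 93.0% in neurons. Endothelial and mural nuclei of the deep brain, with 2 libraries of 10 or more UMIs each, lay at 48.0 to 66.7% and 57.9 to 68.4%, which overlapped the fibroblasts. In the Col4a1 and Col4a2 pair, Col4a1 gave 57.8% in endothelial nuclei (48.9 to 63.3%), 56.1% in fibroblasts (45.2 to 68.3%), 44.0% in astrocytes (29.1 to 50.2%) and 41.9% in neurons (38.5 to 44.1%). Reads from the short overlap of both genes on opposite strands could be counted to either if strand was not used.

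All 5 fibrillar chains were highest in fibroblasts among the 4 classes of the deep brain. Col1a2, the alpha 2 chain of type I collagen, averaged 502 ± 72.0 CPM (SD, n = 12) in deep brain fibroblasts, 118 CPM in mural, 17.9 CPM in endothelial and 16.3 CPM in astrocyte nuclei. In microglia and macrophages, which are not known to make it, the level was 2.40 CPM. Col1a2 (chr6:4504814-4541544) ranged over 459.9 to 649 CPM (median 529) in control and 379 to 540.1 CPM (median 471) in mutant deep brain libraries of fibroblasts, and over 249.8 to 790.0 CPM (median 549) and 311 to 601 CPM (median 415) in the cortex, with overlap in both regions. The other 4 fibrillar chains lay between 88.5 CPM (Col5a1) and 249 CPM (Col1a1) in deep brain fibroblasts. Col3a1, which joins type I collagen in loose tissue and vessel walls, was also found in mural nuclei, at a mean of 76.2 CPM. It ran from 0 to 318 CPM over the deep brain mural libraries, with only 38 mural UMIs in both regions together. Col5a2, a chain of the collagen that nucleates type I fibrils, was found in every class, down to 43.5 CPM in astrocytes. Col5a1 had 89.1% of its UMIs in neurons, the largest share of the fibrillar chains.

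Type VI collagen forms beaded filaments near the cell surface and is built from 3 chains. In deep brain fibroblasts Col6a1, Col6a2 and Col6a3 were at 207, 182 and 46.4 CPM. Divided by gene length, the levels fell in that order, at 11.9, 6.53 and 0.595 CPM per kb. Col6a1 (chr10:76708792-76726168) ranged over 138 to 267 CPM (median 208) in control and 164 to 259 CPM (median 201) in mutant fibroblasts of the deep brain, and over 132 to 371 CPM (median 199) and 124 to 248 CPM (median 225) in those of the cortex. The groups overlapped. The multiplexins are basement membrane collagens with heparan or chondroitin sulfate chains, whose C-terminal fragments include endostatin. Col18a1 was at 69.2 CPM in mural, 61.4 CPM in fibroblast, 20.5 CPM in endothelial and 0.653 CPM in astrocyte nuclei, while Col15a1 was at 68.8 CPM in fibroblasts and 8.95 CPM at most in the other 3 classes. The mural level of Col18a1 ran from 0 to 158 CPM over the deep brain libraries, with only 41 mural UMIs in both regions together. In fibroblasts, Col18a1 (chr10:77052178-77166548) ranged over 47.4 to 91.1 CPM (median 62.6) in control and 44.7 to 70.7 CPM (median 62.3) in mutant deep brain libraries. In the cortex it ranged over 0 to 87.8 CPM (median 21.4) and 11.8 to 306 CPM (median 70.6), and both pairs of groups overlapped.

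Laminins are trimers of an alpha, a beta and a gamma chain, and the alpha chain divides them by cell type. Lama4, the alpha chain of endothelial laminin 411, was at 405 CPM in endothelial, 415 CPM in mural and 279 CPM in fibroblast nuclei, against 1.33 CPM in astrocytes. Lama5, that of laminin 511, was highest in endothelial nuclei at 65.9 CPM. Lama1, the alpha chain of laminin 111 of the meningeal and parenchymal layer, was at 544 CPM in fibroblasts and 0.838 CPM in astrocytes. Lama2, the alpha chain of laminin 211 and a product of astrocyte end-feet, was the laminin chain with the most UMIs, and its gene is also the longest of the 35 (639.7 kb). Of the 106368 UMIs of Lama2, 39450 were in oligodendrocytes and 35712 in astrocytes. It gave most of the UMIs of the 35 genes in both classes (64111 in oligodendrocytes and 56956 in astrocytes). The level of Lama2 in the deep brain was 1116 ± 209 CPM (SD, n = 12) in fibroblasts, 918 ± 409 CPM (SD, n = 11) in mural nuclei and 818 ± 122 CPM (SD, n = 12) in astrocytes, or 1.74, 1.43 and 1.28 CPM per kb. Lama2 (chr10:26980036-27619758) ranged over 886 to 1179 CPM (median 1084) in control and 929 to 1694 CPM (median 1086) in mutant fibroblasts of the deep brain, and over 309 to 1207 CPM (median 779) and 509 to 1261 CPM (median 739) in the cortex. In astrocytes it ranged over 725 to 1054 CPM (median 875) in control and 604 to 851 CPM (median 777) in mutant libraries of the deep brain. All these groups overlapped. Lama3, the alpha chain of laminin 332, was the laminin alpha chain that was higher in endothelial nuclei (73.6 CPM) and astrocytes (33.6 CPM in the deep brain, 134 CPM in the cortex) than in mural nuclei and fibroblasts (7.05 and 1.91 CPM).

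Of the other laminin chains, Lamc1, the common gamma chain, was highest in mural nuclei at 725 CPM and was found in every class. Lamc3 was at 284 CPM in mural nuclei, 109 CPM in fibroblasts and 0.258 CPM in astrocytes. Lamb2, the beta chain of the mature vascular laminins, was at 197, 175, 136 and 25.1 CPM in mural, endothelial, fibroblast and astrocyte nuclei. Its gene is short, and per kb it led the 35 genes in mural, endothelial and astrocyte nuclei, at 18.3, 16.2 and 2.33 CPM per kb. Lamb1, the other beta chain, was at 52.6 CPM in fibroblasts and 22.1 CPM in endothelial nuclei. Nidogen 1 (Nid1), which ties laminin to type IV collagen, was at 429.5 CPM in mural, 238 CPM in fibroblast and 88.5 CPM in endothelial nuclei, and Nid2 was at 41.5 CPM or less in all 4 classes. Perlecan (Hspg2) was highest in endothelial nuclei at 159 CPM. Agrin (Agrn), which is also the synaptic organiser of the neuromuscular junction, was at 178 CPM in mural, 148 CPM in endothelial and 45.7 CPM in astrocyte nuclei. Agrn (chr4:156165290-156197488) in endothelial nuclei ranged over 89.0 to 211 CPM (median 142) in control and 69.3 to 198 CPM (median 159) in mutant deep brain libraries. In mural nuclei it ranged over 70.7 to 411 CPM (median 158) in the 6 control libraries and was 248, 117, 211, 181 and 127 CPM in mutants 1 to 5. Both pairs of groups overlapped.

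Fibronectin (Fn1), the ligand of integrins that assembles on cell surfaces, was highest in endothelial nuclei among the 4 classes, at 1007 ± 214 CPM (SD, n = 12) in the deep brain, or 14.9 CPM per kb. It was at 784 CPM in fibroblasts, 110.0 CPM in mural nuclei and 4.53 CPM in astrocytes. In endothelial nuclei, Fn1 (chr1:71585520-71653200) ranged over 747 to 1030.2 CPM (median 910.0) in control and 866 to 1435 CPM (median 1114) in mutant deep brain libraries. In the cortex it ranged over 294 to 1152 CPM (median 823) in the 6 control libraries and was 1652, 957 and 1907 CPM in mutants 1, 5 and 6, the mutant libraries with 5 or more endothelial nuclei. The groups overlapped in both regions. Fbn1, which forms microfibrils, and Fbln1, a fibulin of elastic fibres and basement membranes, were highest in fibroblasts, at 239.9 and 289 CPM. Decorin (Dcn) and lumican (Lum), which bind fibrillar collagen, were at 655 and 101 CPM in fibroblasts and 3.81 and 0.565 CPM in astrocytes. Dcn (chr10:97479609-97518143) ranged over 416 to 740.2 CPM (median 666) in control and 497 to 823 CPM (median 728) in mutant fibroblasts of the deep brain, which overlapped. Colgalt2, an enzyme that adds galactose to hydroxylysines of collagen, was, like Lama3, highest in endothelial nuclei and next in astrocytes among the 4 classes. It was at 118 CPM in endothelial nuclei, 32.4 CPM in astrocytes, 15.7 CPM in mural nuclei and 3.84 CPM in fibroblasts of the deep brain, and at 18.1 CPM in neurons and 35.4 CPM in oligodendrocyte precursors.

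Fibroblast nuclei fell mainly into 2 clusters, which differed in their matrix transcripts although the 35 genes had not been used to form them. Of deep brain fibroblasts, 421 nuclei of controls and 503 of mutants were in a cluster with Slc6a20a, Ranbp3l and Slc7a11 among its leading genes, called Slc7a11-led here, and 215 and 275 were in a cluster led by Slc47a1. Lama1 and Dcn were among the leading genes of the former and Fn1 among those of the latter, so the values are a description. Summed over the 35 genes, the former held 9404 ± 981 CPM and the latter 4969.7 ± 618 CPM (SD, n = 12). Lama1 was at 921 CPM in the Slc7a11-led and 3.93 CPM in the Slc47a1-led cluster, Col4a6 at 627 and 1.73 CPM, Col4a5 at 606 and 9.60 CPM, and Lamc3 at 186 and 0.424 CPM. Dcn and Lum followed, at 988 and 148 CPM in the Slc7a11-led cluster and 74.4 and 2.81 CPM in the other. Fn1, Col6a1 and Col6a2 went the other way, with 179, 97.1 and 86.9 CPM in the Slc7a11-led and 1359, 386 and 349 CPM in the Slc47a1-led cluster. Type I collagen and Lamb2 were shared more evenly, with Col1a2 at 541 and 472 CPM. The even balance in UMIs of Col4a5 and Col4a6 in fibroblasts was that of the Slc7a11-led cluster, with 1662 and 1727 UMIs in the deep brain (49.0% Col4a5). The Slc47a1-led cluster had only 18 and 4 UMIs there (81.8%), and 17 and 0 in the cortex. The Slc7a11-led cluster held 55.9 to 79.4% of the deep brain fibroblasts of a control library and 50.0 to 70.5% of those of a mutant library.

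**Figure D2:**
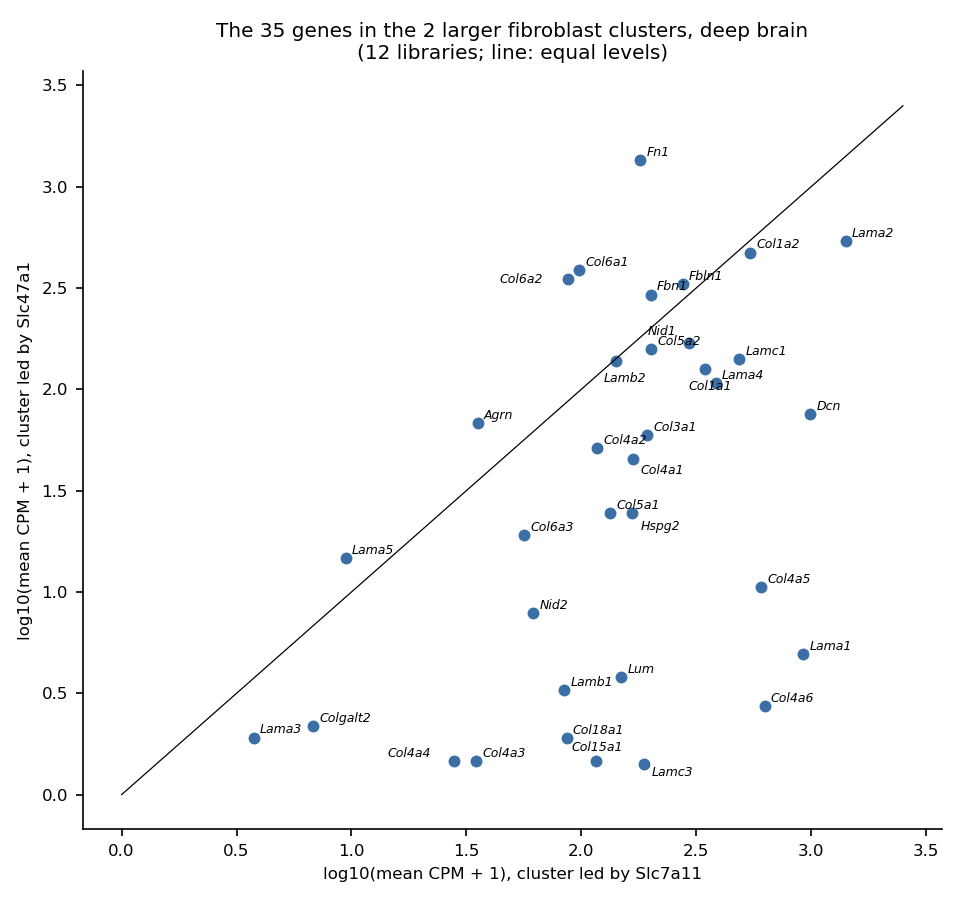
Mean level of each of the 35 genes in deep brain fibroblast nuclei of the cluster led by Slc7a11 (horizontal) and of the cluster led by Slc47a1 (vertical), both as log10(mean CPM + 1) over 12 libraries, with the line of equal levels. Lama1, Col4a5, Col4a6 and Lamc3 lie far below the line (921 against 3.93 CPM for Lama1), and Fn1, Col6a1 and Col6a2 lie above it (179 against 1359 CPM for Fn1).

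Mutant and control deep brains were compared next, in each class, by edgeR's quasi-likelihood test on the UMIs summed per library (Benjamini-Hochberg adjustment over all genes tested, threshold 0.05). Here and below, a log2 fold change is mutant over control, or deep brain over cortex where regions are compared. In endothelial nuclei, the 35 genes summed to 3014 to 3931 CPM (median 3372) in controls and 3551 to 4845 CPM (median 4069.6) in mutants, and these ranges overlapped. Of the 35 members, 10 had enough counts to be tested and 1, Colgalt2, changed, where 1.66% of all genes tested passed, 1.17% higher and 0.482% lower. The median log2 fold change was 0.19 for the 10 members and -0.0075 for all 3321 genes. Colgalt2 (chr1:152399830-152510695) was at 101 to 204 CPM (median 156) in the 6 control libraries and 51.7 to 95.4 CPM (median 82.6) in the 6 mutant libraries. The groups did not overlap, and every mutant library lay below every control library (log2 fold change -1.02 ± 0.23 (SE), adjusted p = 0.0213). The values rest on 127 UMIs in controls and 71 in mutants. The call was lost without control 6 (adjusted p = 0.0529), mutant 4 (0.0707) or mutant 5 (0.055). With nuclei thinned to 800 UMIs Colgalt2 no longer had enough counts to be tested.

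The chains of the endothelial basement membrane did not pass. Col4a1 was at 293 to 542 CPM (median 365) in controls and 381 to 931 CPM (median 578) in mutants (log2 fold change 0.52 ± 0.21 (SE), adjusted p = 0.292), and Lama4 was at 275 to 448 CPM (median 308) and 398 to 601 CPM (median 444) (log2 fold change 0.51 ± 0.18 (SE), adjusted p = 0.19). Both overlapped between genotypes and had an unadjusted p under 0.05, as did 3 of the 10 members with Colgalt2 and 10.9% of all genes tested. Markers of other cells moved with genotype in the same nuclei. The 14 mural markers summed to 3091 to 5842 CPM in controls and 1658 to 3371 CPM in mutants. Among them, Rgs5 (log2 fold change -2.24 ± 0.41, adjusted p = 0.00439) and Atp13a5 (-2.51 ± 0.53, adjusted p = 0.0112) were lower in mutants, and no mural marker was at 0. The neuronal marker Snap25 was lower as well (-0.90 ± 0.22, adjusted p = 0.0332). The 15 fibroblast markers summed to 447 to 1114 CPM and 678 to 1481 CPM, and Apod among them was higher (0.96 ± 0.22, adjusted p = 0.0213). The part of these markers in the result for Colgalt2 was not tested. In mural nuclei, Colgalt2 was at 0 to 56.1 CPM in controls and 0 to 63.4 CPM in mutants.

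In endothelial nuclei of the cortex, 3 mutant libraries with 5 or more nuclei were compared with 6 control libraries, and 0 of 6 members tested passed in edgeR, where 1.69% of all genes did. DESeq2 also called none, and 2 members had an unadjusted p under 0.05, as did 15.0% of all genes. Lama4 was at 216 to 324 CPM (median 279) in controls and 716, 517 and 597 CPM in mutants 1, 5 and 6 (log2 fold change 1.05 ± 0.32 (SE), adjusted p = 0.12). Col4a2 was at 147 to 504 CPM (median 291) in controls and 816, 530.1 and 504 CPM in those mutants (log2 fold change 0.86 ± 0.40 (SE), adjusted p = 0.328). Neither overlapped between genotypes, but for Col4a2 the lowest mutant library was at 504.1 CPM and the highest control library at 503.6 CPM. The share of all genes tested that did not overlap between 3 and 6 libraries was not determined. The control libraries held 5 to 32 endothelial nuclei (median 7) and as few as 13594 UMIs, which limits the precision of these values. The mural markers Vtn and Atp13a5 were lower in these mutant nuclei (adjusted p = 0.0173 and 0.031), and Atp13a5 was at 0 in the 3 mutant libraries. Between deep brain and cortex of the controls, 0 of 10 members and 0.0% of all genes passed, and DESeq2 called 0 members. An unadjusted p under 0.05 was found for 1 member, Colgalt2, and for 5.77% of all genes. For the difference of the genotype effect between regions, 0 of 13 members and 0.0% of all genes passed, and DESeq2 called 0 members. An unadjusted p under 0.05 was found for 0 members and for 6.51% of all genes.

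Mural nuclei of the deep brain allowed 4 members to be tested, in 6 control libraries and mutants 1 to 5. None passed in edgeR or DESeq2, where 4.2% of the 238 genes tested did in edgeR. An unadjusted p under 0.05 was found for 14.7% of all genes tested and for 1 member. That member, Col4a1, was at 91.4 to 785 CPM (median 458) in controls and 891, 1405, 475, 483 and 1204 CPM in mutants 1 to 5. The groups overlapped (log2 fold change 0.87 ± 0.40 (SE), adjusted p = 0.28), and with the replicate number as a block the adjusted p was 0.036. The other 3 were Lama2 (log2 fold change -0.35 ± 0.37 (SE), adjusted p = 0.695), Lamc1 (log2 fold change 0.14 ± 0.32 (SE), adjusted p = 0.851) and Nid1 (log2 fold change 0.34 ± 0.38 (SE), adjusted p = 0.699). The 35 genes summed to 3863 to 5794 CPM (median 5213) in controls and 5990.4, 7612, 4381, 4646 and 7541 CPM in mutants 1 to 5. The 5 mutant libraries used held 7 to 11 mural nuclei and control libraries 16 to 35, which limits the precision of these values.

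Fibroblast nuclei, the richest in these transcripts, had 30 members tested in the deep brain, and none passed in edgeR or DESeq2. Of all 7574 genes, 0.0% passed in edgeR (419 at an unadjusted p under 0.05) and 1 in DESeq2. The median log2 fold change was 0.10 for the 30 members and 0.0015 for all genes. Summed over the 35 genes, controls ranged over 6942 to 7977 CPM (median 7809) and mutants over 6844 to 9182 CPM (median 7839), and the ranges overlapped. Of the 30, 4 had an unadjusted p under 0.05. Col4a1 was at 62.2 to 112 CPM (median 82.7) in controls and 116 to 196 CPM (median 127) in mutants and did not overlap between genotypes (log2 fold change 0.70 ± 0.18 (SE), adjusted p = 0.374). The share of all genes tested that did not overlap was not determined. Lamb1 was at 24.7 to 58.7 CPM (median 31.2) and 56.2 to 83.6 CPM (median 67.1), with overlap (log2 fold change 0.88 ± 0.22 (SE), adjusted p = 0.374). Lamb2 and Col1a1 also overlapped (log2 fold change -0.39 ± 0.14 (SE), adjusted p = 0.703 for Lamb2, and log2 fold change 0.43 ± 0.18 (SE), adjusted p = 0.817 for Col1a1). Markers of the other classes did not pass in this comparison either. In cortical fibroblasts 0 of 22 members and 0.0% of all genes passed in edgeR, and DESeq2 called 0 members. Dcn and Lum had an unadjusted p under 0.05, as did 6.39% of all genes. Dcn was at 201 to 702 CPM (median 405) in controls and 359.8 to 2323 CPM (median 552) in mutants (log2 fold change 0.88 ± 0.40 (SE), adjusted p = 0.744), and the groups overlapped. Between the regions of control mice, 0 of 29 members passed, where 0.505% of all genes did, and DESeq2 called 0 members. An unadjusted p under 0.05 was found for 4 members and for 9.71% of all genes. The genotype effect differed between regions for 0 of 30 members and 0.0% of all genes, and DESeq2 called 0 members. Col18a1 and Lum had an unadjusted p under 0.05, as did 4.88% of all genes.

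**Figure D3:**
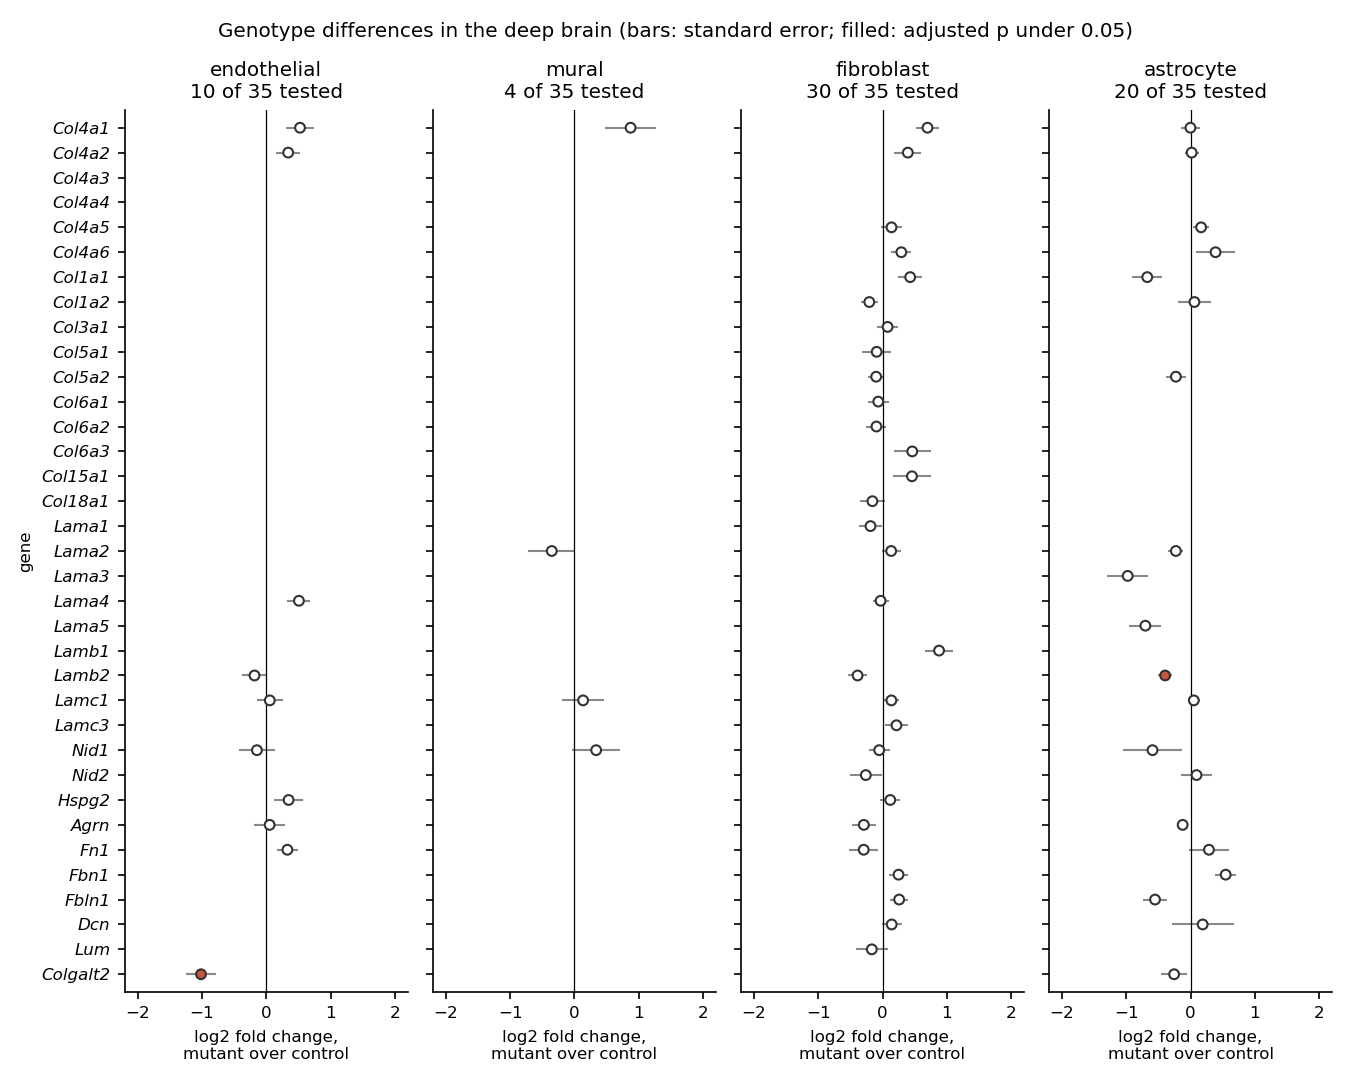
Log2 fold change of mutant over control in the deep brain (horizontal axis) for each member that could be tested (rows), in 4 panels by cell class, with bars for the standard error and filled points for an adjusted p under 0.05. The filled points are Colgalt2 in endothelial nuclei (-1.02 ± 0.23) and Lamb2 in astrocytes (-0.40 ± 0.11), and the 30 members in fibroblasts and 4 in mural nuclei are open.

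In astrocytes of the deep brain, 1 of 20 members tested changed, where 5.12% of all 12791 genes passed, 3.2% higher and 1.92% lower. The median log2 fold change was -0.063 for the members and -0.0034 for all genes. Lamb2 (chr9:108479736-108490530) was at 22.9 to 34.5 CPM (median 26.9) in controls and 20.2 to 24.4 CPM (median 21.6) in mutants. The groups overlapped, and the difference was at the threshold (log2 fold change -0.40 ± 0.11 (SE), adjusted p = 0.05, just under 0.05 before rounding). It passed in 6 of 24 alternatives, with adjusted p between 0.0305 and 0.698. A further 5 members had an unadjusted p under 0.05, which 18.3% of all genes had. Lama3 was at 16.9 to 66.3 CPM (median 47.8) in controls and 10.1 to 35.7 CPM (median 22.7) in mutants (log2 fold change -0.98 ± 0.31 (SE), adjusted p = 0.0851), and Fbn1 was at 15.6 to 25.8 CPM (median 18.7) and 17.8 to 34.7 CPM (median 29.4) (log2 fold change 0.55 ± 0.17 (SE), adjusted p = 0.072). The others were Col1a1 (-0.67 ± 0.23), Lama5 (-0.70 ± 0.25) and Fbln1 (-0.55 ± 0.19), with adjusted p from 0.11 to 0.12, and all 5 overlapped between genotypes. Without mutant 6, 4 members passed (Lama5, Lamb2, Col1a1 and Fbln1), as did 1059 of all 12919 genes against 655 with it. With the replicate number as a block, 3 members and 6.52% of all genes passed. The block by age gave 2 members and 5.78% of all genes. Lama2, the member with the most UMIs in astrocytes, was at 725 to 1054 CPM (median 875) and 604 to 851 CPM (median 777) (log2 fold change -0.23 ± 0.12 (SE), adjusted p = 0.322). Summed over the 35 genes, astrocytes held 1245 to 1556 CPM (median 1315) in controls and 1012 to 1286 CPM (median 1229.6) in mutants. Markers of other cells moved here too. The 9 neuronal markers summed to 629.6 to 924 CPM in controls and 831 to 1413 CPM in mutants, with Rbfox1 at a log2 fold change of 1.01 ± 0.11 (adjusted p = 9.68e-05), and the 6 markers of oligodendrocyte precursors to 118 to 275 CPM and 228 to 409 CPM. No marker of either list was at 0, and their part in the result was not tested. Astrocytes of the deep brain lay mostly in a cluster led by Slc6a11, which held 51.9 to 87.8% of those of a control library and 71.2 to 84.5% of those of a mutant library, and in a cluster led by Slco1c1. Lama3 was at 0.653 CPM in the former and 116 CPM in the latter. Each cluster was also fitted alone, an alternative chosen after the data were seen. Lamb2 did not pass (log2 fold change -0.41, adjusted p = 0.105 in the former, and -0.31, adjusted p = 0.505 in the latter). Col1a1 passed in the former (log2 fold change -0.79, adjusted p = 0.0472) and Col5a2 in the latter (-0.99, adjusted p = 0.018). The share of all genes that passed within each cluster is not reported here.

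**Figure D4:**
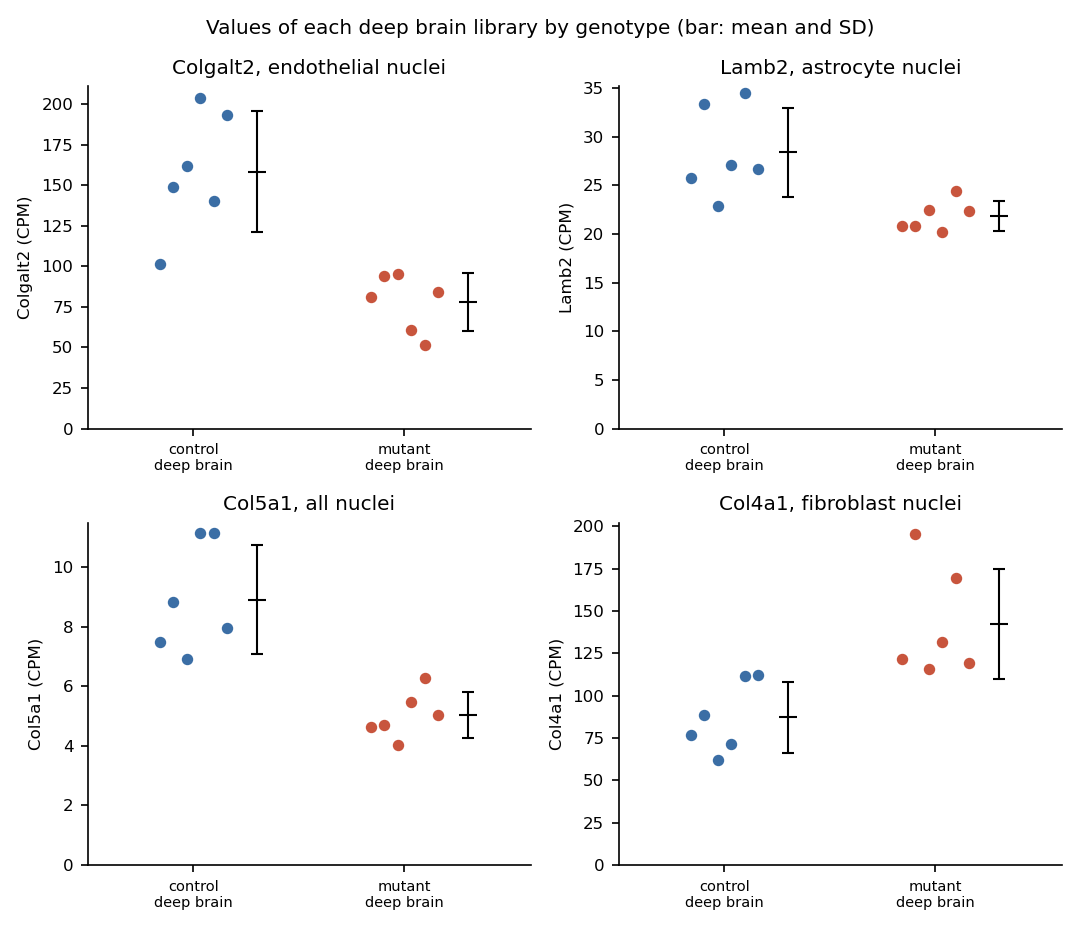
Level in CPM of 4 members in each control and mutant deep brain library (points, 6 per group), with the mean and SD as bars. Colgalt2 in endothelial nuclei, Col5a1 in all nuclei and Col4a1 in fibroblasts do not overlap between genotypes, while Lamb2 in astrocytes does. Col4a1 in fibroblasts did not pass after adjustment (adjusted p = 0.374), where 0.0% of all genes tested passed.

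In cortical astrocytes, 0 of 10 members passed in edgeR or DESeq2, where 2.13% of all genes did in edgeR. An unadjusted p under 0.05 was found for 0 members and for 12.3% of all genes. Summed over the 35 genes they held 1466 to 1579 CPM (median 1527) in controls and 1245 to 1598 CPM (median 1318) in mutants. For the difference of the genotype effect between regions, 0 of 18 members and 0.0% of all genes passed, and DESeq2 called 0 members. Col1a2 had an unadjusted p under 0.05 (log2 fold change 2.22 ± 0.65 (SE), adjusted p = 0.76), as did 4.88% of all genes. Deep brain and cortex were then set against each other. Of 16 members tested between deep brain and cortex of the controls, 4 changed, where 10.8% of all genes passed, 4.96% higher and 5.89% lower. Lama3 was at 16.9 to 66.3 CPM (median 47.8) in the deep brain and 104 to 183 CPM (median 153) in the cortex, without overlap (log2 fold change -1.77 ± 0.24 (SE), adjusted p = 2.15e-05). Colgalt2 was at 16.9 to 51.9 CPM (median 35.4) and 41.0 to 99.4 CPM (median 89.9) (log2 fold change -1.28 ± 0.21 (SE), adjusted p = 0.000277), and overlapped through control 3 of the cortex. Both were lower in the deep brain. Col4a1 (chr8:11198423-11312826) was higher there, at 20.0 to 28.5 CPM (median 25.7) against 12.6 to 16.8 CPM (median 14.2), without overlap (log2 fold change 0.71 ± 0.19 (SE), adjusted p = 0.0141), and so was Col5a2 (chr1:45374321-45503282), at 40.2 to 52.3 CPM (median 46.6) against 12.6 to 44.8 CPM (median 28.1), with overlap (log2 fold change 0.61 ± 0.18 (SE), adjusted p = 0.0297). The mutant libraries, which this comparison did not use, had Lama3 at 10.1 to 35.7 CPM (median 22.7) in the deep brain and 72.9 to 184 CPM (median 117) in the cortex, and Colgalt2 at 22.4 to 41.4 CPM (median 28.6) and 50.3 to 93.5 CPM (median 83.9), neither with overlap. Col4a1, at 16.7 to 32.8 CPM (median 24.5) and 13.0 to 23.5 CPM (median 15.9), and Col5a2, at 22.0 to 53.6 CPM (median 42.0) and 3.90 to 39.0 CPM (median 22.5), overlapped between the regions of the mutants.

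Lama3 and Colgalt2 also differed between the astrocyte clusters of the deep brain. Nuclei of the regions were first clustered apart, and cortical astrocytes made up a single cluster. The Slco1c1-led cluster of the deep brain was near the cortex in these genes, with Lama3 at 116 CPM against 134 CPM in the cortex and Colgalt2 at 67.8 CPM against 81.1 CPM, whereas the Slc6a11-led cluster held 0.653 and 16.7 CPM. Col4a1 and Col5a2 in the Slco1c1-led cluster of controls averaged 24.6 and 45.8 CPM against 14.5 and 29.7 CPM in the control cortex, and both overlapped (11.0 to 31.7 and 42.1 to 51.4 CPM against 12.6 to 16.8 and 12.6 to 44.8 CPM). With the Slc6a11-led cluster left out, an alternative chosen after the data were seen, 0 of 11 members passed in edgeR. Of all 7873 genes tested then, 0.762% passed, against 10.8% with the cluster, so the loss of calls was not particular to the members. The log2 fold change was -0.18 for Lama3 (adjusted p = 0.793) and -0.24 for Colgalt2 (adjusted p = 0.718). Col5a2 did not pass either (0.58, adjusted p = 0.239), and Col4a1 was no longer tested. Astrocyte markers differed between the regions as well, at log2 fold changes of -0.76 ± 0.11 for Slc1a2 and 1.96 ± 0.16 for Agt.

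**Figure D5:**
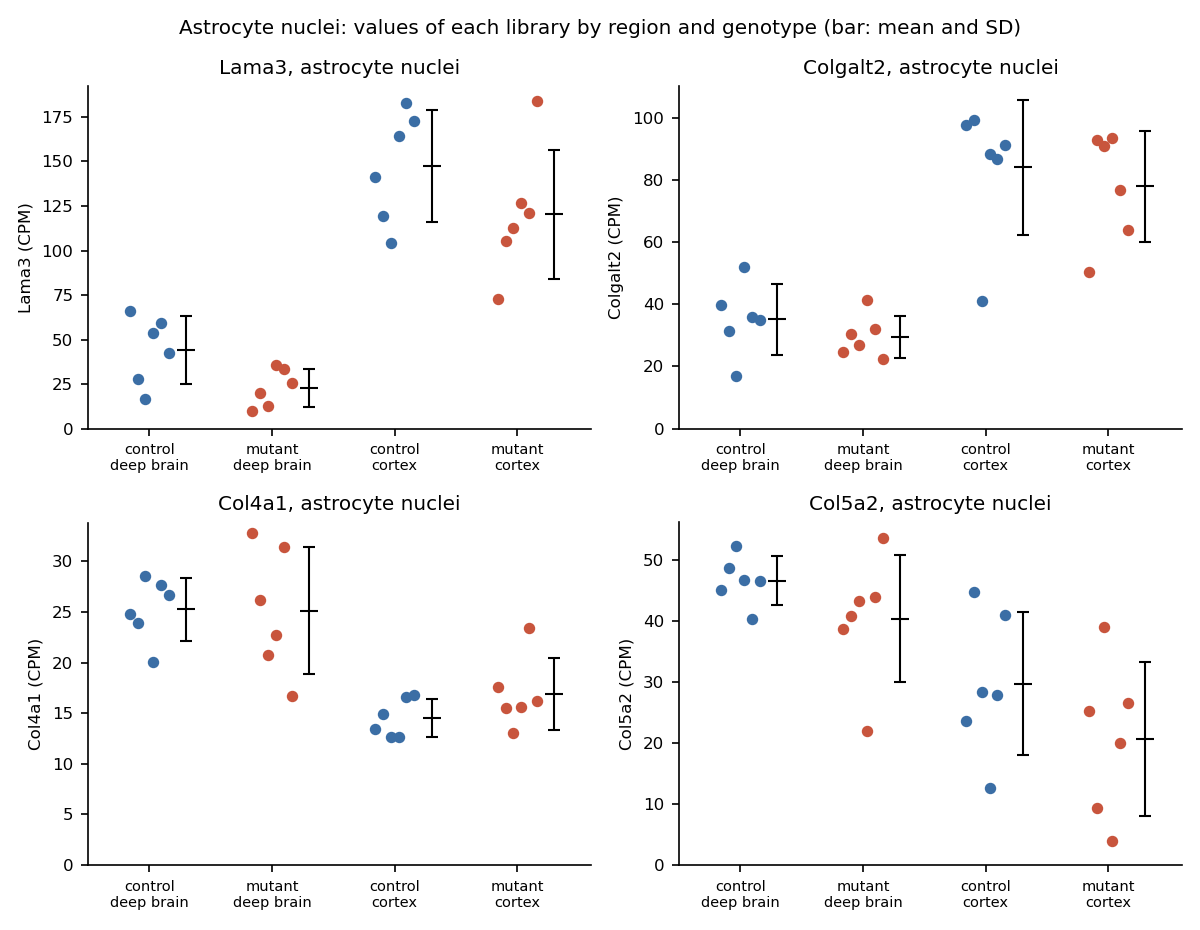
Level in CPM of Lama3, Colgalt2, Col4a1 and Col5a2 in the astrocyte nuclei of each library (points, 6 per group), by region and genotype, with the mean and SD as bars. Lama3 of the controls sits at 16.9 to 66.3 CPM in the deep brain and 104 to 183 CPM in the cortex, and the mutants show the same order.

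Over all nuclei of a library, which neurons dominate, every member could be tested. In the deep brain 1 of 35 changed between genotypes, where 1.54% of all 21040 genes passed, 0.913% higher and 0.627% lower. Col5a1 (chr2:27886425-28039514) was at 6.91 to 11.1 CPM (median 8.40) in controls and 4.05 to 6.28 CPM (median 4.87) in mutants, without overlap (log2 fold change -0.83 ± 0.14 (SE), adjusted p = 0.0171). A single neuronal cluster made up 4.13 to 21.2% of the nuclei of a control deep brain library and 0.698 to 7.15% of those of a mutant library. Col5a1 was at 26.7 CPM in that cluster in controls and 15.5 CPM in mutants, and without the cluster, left out after the data were seen, it was at 4.43 and 4.27 CPM, with a log2 fold change of -0.03 (adjusted p = 0.984). Another neuronal cluster made up 0.0106 to 6.11% of the nuclei of a control library (median 0.0262%) and 0.0098 to 18.0% of those of a mutant library (median 1.57%), and its part in these sums was not tested. In the cortex 0 of 35 members passed in edgeR, where 0.275% of all genes did. An unadjusted p under 0.05 was found for 4 members and for 8.58% of all genes. DESeq2 called 3 members (Col5a2, Col6a1 and Col6a2) among 270 of 18171 genes. The largest of these, Col5a2, was at 5.55 to 9.63 CPM (median 6.71) in controls and 3.82 to 5.60 CPM (median 4.62) in mutants (log2 fold change -0.56 ± 0.14 (SE), adjusted p = 0.146). In this comparison same-numbered libraries deviated together, which the values above did not take into account. With the replicate number as a block, 418 genes passed instead of 50, among them Col5a2 (-0.54 ± 0.091, adjusted p = 0.0162) and Lama3 (-0.42 ± 0.092, adjusted p = 0.0451). The genotype effect differed between regions for 0 of 35 members in edgeR, where 0.00463% of all genes passed. An unadjusted p under 0.05 was found for 5 members and for 6.69% of all genes. DESeq2 called Col5a1 among 127 of 21606 genes.

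Between deep brain and cortex of the controls, 16 of 35 members changed over all nuclei, 11 higher in the deep brain and 5 lower, where 36.0% of all genes passed, 17.9% higher and 18.1% lower. The median log2 fold change was 0.22 for the members and -0.015 for all genes. Among the type IV chains, Col4a3 was higher in the deep brain, at 1.18 to 1.78 CPM (median 1.70) against 0.174 to 0.988 CPM (median 0.549) in the cortex (log2 fold change 1.29 ± 0.27 (SE), adjusted p = 0.00189). Col4a4 was at 2.11 to 3.13 CPM (median 2.61) against 0.862 to 1.52 CPM (median 1.18) (log2 fold change 1.02 ± 0.14 (SE), adjusted p = 0.00012), and Col4a5 at 6.30 to 9.11 CPM (median 7.60) against 3.60 to 5.35 CPM (median 4.22) (log2 fold change 0.73 ± 0.11 (SE), adjusted p = 0.000171). None of the 3 overlapped between regions. Col4a1 was lower, at 31.2 to 44.6 CPM (median 35.5) against 37.9 to 53.4 CPM (median 45.4), with overlap (log2 fold change -0.43 ± 0.11 (SE), adjusted p = 0.00608), the opposite direction to that in astrocytes. Col5a1 was lower too, at 6.91 to 11.1 CPM (median 8.40) against 11.7 to 22.2 CPM (median 15.4), without overlap (log2 fold change -0.98 ± 0.16 (SE), adjusted p = 0.000411).

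The type VI chains went in different directions. Col6a1 was lower in the deep brain, at 11.6 to 24.0 CPM (median 19.4) against 41.1 to 62.0 CPM (median 54.0) (log2 fold change -1.60 ± 0.17 (SE), adjusted p = 1.45e-05), as was Col6a2, at 5.49 to 7.31 CPM (median 7.07) against 12.9 to 15.1 CPM (median 14.6) (log2 fold change -1.22 ± 0.092 (SE), adjusted p = 7.98e-07), both without overlap. Col6a3 was higher, at 2.61 to 4.40 CPM (median 3.33) against 1.12 to 2.72 CPM (median 1.68) (log2 fold change 0.89 ± 0.20 (SE), adjusted p = 0.00289), with overlap. Both multiplexins were higher in the deep brain without overlap. Col18a1 was at 3.76 to 6.24 CPM (median 5.12) against 1.21 to 1.95 CPM (median 1.59) (log2 fold change 1.52 ± 0.16 (SE), adjusted p = 9.68e-06) and Col15a1 at 8.05 to 11.6 CPM (median 9.49) against 3.72 to 6.50 CPM (median 5.20) (log2 fold change 0.77 ± 0.14 (SE), adjusted p = 0.000733). Of the laminin chains, Lama2 was at 87.6 to 119.9 CPM (median 95.6) against 41.7 to 56.0 CPM (median 45.9) (log2 fold change 0.92 ± 0.10 (SE), adjusted p = 1.07e-05), Lama5 at 2.70 to 3.91 CPM (median 3.18) against 1.36 to 2.35 CPM (median 1.51) (log2 fold change 0.74 ± 0.17 (SE), adjusted p = 0.00318) and Lamc3 at 1.23 to 1.96 CPM (median 1.65) against 0.652 to 1.08 CPM (median 0.953) (log2 fold change 0.65 ± 0.16 (SE), adjusted p = 0.00684), each higher in the deep brain and without overlap. Lama1, at 5.61 to 13.6 CPM (median 10.6) against 3.26 to 7.21 CPM (median 5.47) (log2 fold change 0.81 ± 0.21 (SE), adjusted p = 0.00809), was higher with overlap, and Lama4, at 8.40 to 15.4 CPM (median 9.51) against 13.0 to 25.2 CPM (median 16.9) (log2 fold change -0.89 ± 0.19 (SE), adjusted p = 0.00223), was lower with overlap. Hspg2 was higher, at 1.40 to 2.29 CPM (median 2.06) against 0.913 to 2.02 CPM (median 1.23), with overlap (log2 fold change 0.46 ± 0.17 (SE), adjusted p = 0.0487), and passed in 8 of 15 alternatives. With the mouse as a block, since both regions come from the same mice, Fbn1 and Dcn passed as well and 18 members were called, along with 8166 of all 20755 genes. With the same neuronal cluster of the deep brain left out, likewise after the data were seen, 25 members and 9622 of all 20208 genes passed. Of the 79967 cortical nuclei, 38631 lay in an unnamed cluster (median 835 UMIs) with mostly mitochondrial leading genes, and all sums over cortical nuclei include it. Without it, also after the data were seen, 19 members and 8015 of all 20706 genes passed. With only the cortical libraries at a median of 1500 UMIs or more, 15 members and 5222 of all 21607 genes passed. The regions also differ in their mix of cell types and in depth, and these cannot be told apart from a change within cells in sums over all nuclei.

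Genes that act on these proteins were described from 4 further lists. In endothelial nuclei of the deep brain, where 1.66% of all genes passed, 0 genes passed in edgeR of the 5 matrix receptors tested (of 22 listed), 6 collagen processing and crosslinking genes (of 25), 8 matrix proteases and inhibitors (of 24) and 8 further matrix genes (of 38). In endothelial nuclei of the cortex 1.69% of all genes passed. Bgn, which codes for biglycan, a small leucine-rich proteoglycan, was higher in mutants there. It was at 491, 736 and 1378 CPM in the 3 mutant libraries and 0 to 136 CPM (median 10.4) in controls (log2 fold change 3.96 ± 0.58 (SE), adjusted p = 0.00204). The 3 mutant libraries did not overlap the 6 control libraries. In mural nuclei, where 4.2% of the 238 genes tested passed, Sparcl1, a matricellular protein, was higher in mutants (log2 fold change 0.87 ± 0.25 (SE), adjusted p = 0.0483). The Sparcl1 call was kept in 6 of 21 alternatives, where its log2 fold change fell as low as 0.28. In fibroblasts no gene of the 4 lists passed in either region. In deep brain astrocytes, where 3.2% of all genes were higher and 1.92% lower, 1 of 20 processing genes tested, the prolyl 4-hydroxylase subunit P4ha3, was higher in mutants, at 36.5 to 56.3 CPM (median 46.6) against 16.7 to 33.4 CPM (median 29.6) (log2 fold change 0.70 ± 0.14 (SE), adjusted p = 0.00696), and 1 of 22 further matrix genes, Smoc1, a SPARC family protein, was at 45.2 to 70.9 CPM (median 48.6) against 31.8 to 43.1 CPM (median 37.1) (log2 fold change 0.47 ± 0.12 (SE), adjusted p = 0.0295). The P4ha3 call was kept in 22 of 24 alternatives and the Smoc1 call in 16 of 24, where its log2 fold change fell as low as 0.17. Over all deep brain nuclei, where 1.54% of all genes passed, 1 of 24 proteases and inhibitors, Timp4, was higher in mutants (log2 fold change 0.32 ± 0.067 (SE), adjusted p = 0.0339) and 1 of 38 further matrix genes, the integrin ligand nephronectin (Npnt), was lower (log2 fold change -0.47 ± 0.11 (SE), adjusted p = 0.05). Timp4 passed in 13 of 21 alternatives and Npnt in 5 of 21, and Npnt was at a log2 fold change of -0.18 (adjusted p = 0.678) without the neuronal cluster that was left out for Col5a1.

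Between deep brain and cortex of control astrocytes, 1 of 14 receptors tested was higher and 2 were lower, where 4.96% of all genes were higher and 5.89% lower. They were Itgb8 (log2 fold change 0.42 ± 0.11 (SE), adjusted p = 0.0147), Sgcb (log2 fold change -0.59 ± 0.15 (SE), adjusted p = 0.0117) and Ddr2 (log2 fold change -0.99 ± 0.28 (SE), adjusted p = 0.0246). Of 20 processing genes, 3 were higher and 1 lower. The lysyl hydroxylase Plod2 was at 67.1 to 122 CPM (median 90.8) in the deep brain and 16.8 to 49.7 CPM (median 28.6) in the cortex (log2 fold change 1.48 ± 0.20 (SE), adjusted p = 2.53e-05), and the procollagen proteinase enhancer Pcolce2 (log2 fold change 3.39 ± 0.64 (SE), adjusted p = 0.00106) and the procollagen peptidase Adamts2 (log2 fold change 1.79 ± 0.40 (SE), adjusted p = 0.00433) were higher too. Pcolce2 was at 9.27 to 27.2 CPM (median 15.0) against 0 to 9.48 CPM (median 0.332), with overlap, and its log2 fold change was 4.62 without control 4 and 2.85 without control 5. The collagen chaperone Serpinh1 was lower (log2 fold change -0.44 ± 0.13 (SE), adjusted p = 0.0254). Of 18 proteases and inhibitors, 3 were lower, Mmp16 (log2 fold change -1.42 ± 0.19 (SE), adjusted p = 2.76e-05), Htra1 (log2 fold change -0.52 ± 0.13 (SE), adjusted p = 0.00968) and Mmp17 (log2 fold change -1.16 ± 0.36 (SE), adjusted p = 0.0393). Of 19 further matrix genes, 2 were higher and 6 lower. Sparc, the collagen-binding matricellular protein, was at 333 to 571 CPM (median 388) in the deep brain and 41.1 to 233 CPM (median 148) in the cortex (log2 fold change 1.52 ± 0.21 (SE), adjusted p = 3.13e-05), and Thbs2 was higher too (log2 fold change 2.60 ± 0.39 (SE), adjusted p = 8.61e-05). Lower by the smallest p were Ltbp1 (log2 fold change -1.09 ± 0.18 (SE), adjusted p = 0.000274), Frem2 (log2 fold change -0.73 ± 0.16 (SE), adjusted p = 0.00284), Eln (log2 fold change -1.31 ± 0.28 (SE), adjusted p = 0.00323) and the glial matrix protein tenascin C (Tnc) at 20.7 to 56.7 CPM (median 35.6) against 44.8 to 104 CPM (median 79.5) (log2 fold change -1.13 ± 0.23 (SE), adjusted p = 0.00155). Without the Slc6a11-led cluster, none of the 10 genes named here that could still be tested passed in edgeR (adjusted p from 0.183 to 0.998), where 0.762% of all genes passed. Sparc turned direction, at a log2 fold change of -0.13, and Tnc (-0.012), Frem2 (-0.056), Ltbp1 (-0.17), Itgb8 (0.044), Sgcb (-0.17), Mmp16 (-0.30), Htra1 (-0.25) and Plod2 (0.30) were smaller, while Serpinh1 was at -0.46. Over all alternatives Serpinh1 passed in 8 of 16, Itgb8 in 10 of 16, Sgcb in 11 of 16, and Ddr2 and Mmp17 in 10 of 14 each. Over all nuclei, 8 of 22 receptors were higher in the deep brain and 7 lower, 5 and 4 of 24 processing genes, 6 and 4 of 24 proteases and inhibitors, and 14 and 8 of 38 further matrix genes, where 17.9% of all genes were higher and 18.1% lower. The receptors with the smallest p were the integrin subunits Itga3 (0.82), Itgb4 (0.88), Itga6 (0.36) and Itga9 (0.53), all higher, and Itgav (-0.43), Sgcb (-0.31), Dag1 (-0.25) and Itga4 (-0.72), all lower (log2 fold changes). Among the processing genes these were P4ha3 (0.79), Plod1 (0.86), Pcolce2 (0.53) and Adamts2 (0.76) (higher) and Bmp1 (-0.51), Pxdn (-0.54), P4ha1 (-0.42) and Colgalt1 (-0.19) (lower), and among the proteases and inhibitors they included Timp3 (0.69), Adamts4 (0.72), Mmp15 (0.68) and Adamts12 (0.99) (higher) and Plat (-0.77), Mmp17 (-1.17) and Mmp16 (-0.40) (lower). Colgalt1 passed in 8 of 15 alternatives. Of the further matrix genes they included Col25a1 (0.66), Hmcn1 (1.15), Col16a1 (0.96) and Egflam (1.30) (higher) and Ltbp4 (-0.50), Fbln2 (-1.04) and Smoc2 (-1.24) (lower).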

How the data were processed

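Nuclear RNA of 24 libraries (deep brain and cortex of 12 mice, 6 per genotype) had been sequenced with 10x Genomics 5′ kits. The values are UMI counts per gene and nucleus, deposited by the authors without normalization. Per the labels and the study's methods they were made with bcl2fastq 2.20.0.422 and Cell Ranger 5.0.1, introns included, on mm10. Introns let long genes gather more UMIs, so rankings of different genes by level used CPM per kb of gene length (GENCODE M21, 35 of 35 genes matched). Ranges over several genes and shares within collagen gene pairs are in CPM or UMIs, without regard to length, and do not rank the genes. The members described in full were chosen by UMIs.

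Nuclei with more than 500 and fewer than 7000 genes and under 20% mitochondrial UMIs were kept. Clusters (2000 variable genes without the 35 members and the other matrix genes, counts scaled to 1000 per nucleus, 20 components, 20 neighbours, resolution 0.01 and then 0.1; scanpy 1.11.5, Seurat 5.3.0, Python 3.11.15, R 4.3.3) were named from marker genes. Nuclei that fitted no list or held markers of several classes stayed unnamed. Doublets were not removed in the reported values: Scrublet marked 4.2 to 7.94% of deep brain nuclei per library, but under 0.5% in 5 cortical libraries and over 20% in 3. The reason for this spread was not tested. Library pairs shared 8 to 220 barcodes (0.284 to 1.98%).

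UMIs were summed per library and class (at least 5 nuclei) and tested with edgeR 4.0.16 (filterByExpr, TMM, quasi-likelihood test, Benjamini-Hochberg over all genes tested, threshold 0.05), 17 comparisons in all. The scripts were tested on simulated data. Samples were grouped by the genotype and region in the labels, and each library is a separate mouse within its region. Alternatives were DESeq2 1.42.0, RLE size factors, no filter, replicate blocks, stricter nuclei and doublet filters, nuclei thinned to 800 UMIs, clustering on all variable genes, and leaving out each mouse, with both its libraries where both regions entered. Among them was a limit of at least 10 nuclei per library. Every deep brain endothelial library and every astrocyte library met this limit, so it repeats the reported fit in their counts of alternatives. The reported tests used no pairing of mice, and replicate blocks were fitted as alternatives only. Mice of the 2 genotypes with the same number were judged to deviate together where every pair's deviations correlated at over 0.1. This held over all nuclei of the cortex (6 of 6 pairs, r = 0.308 to 0.895) and in no other genotype comparison, with 4 of 6 pairs over all deep brain nuclei and 3 of 6 or fewer in the classes of the deep brain. Libraries of the 2 regions with the same number and genotype are of the same mouse by the labels.

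The members and lists were chosen with earlier results of these data known. Values are given for each member called in a comparison and for the member with the most UMIs in each role group, and up to 4 genes of each other list per direction and comparison are named, by smallest p. Other members are named as examples, with their values known. Some genes that this rule would name are not reported here. Promoters came from RefSeq (GRCm38.p6).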

Additional observations from a re-analysis of the deposited data

Results flagged for a closer look

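Of 73 groups of 4 to 10 libraries examined for the members described in full, 6 held a library set apart from the others by Dixon's test at the 95% level, which chance gives in about 1 of 20 groups. Lama2 in fibroblasts reached 1694 CPM in mutant 2 of the deep brain, against 1206 CPM in the next library. Fn1 in fibroblasts reached 1535 CPM in control 3 of the deep brain, against 772 CPM. Col6a1 in cortical fibroblasts was lowest in mutant 5, at 124 CPM against 216 CPM. Dcn in cortical fibroblasts reached 2323 CPM in mutant 3, from 9 nuclei, against 659.9 CPM. Agrn in astrocytes was lowest in control 3 of the deep brain, at 39.3 CPM against 47.0 CPM. Colgalt2 in cortical astrocytes was lowest in control 3, at 41.0 CPM from 13 UMIs in 49 nuclei, against 86.9 CPM.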

How the results depend on the processing

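Depth limits the cortex most, where 7 of 12 libraries had a median under 1500 UMIs per nucleus. Mural nuclei were too few to be fitted in the cortex and between regions. Each alternative changed a single choice. Of the counts of called members and the summed levels, 297 stayed within 1.5 times or the replicate spread under other settings and 39 moved, and 25 and 4 under settings chosen after the data were seen. The cause of a move was not tested unless the alternative itself left out nuclei or libraries.

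Without the filter on low counts, members called rose from 1 to 2 in deep brain endothelial nuclei and in deep brain astrocytes, from 0 to 2 in deep brain fibroblasts, and from 0 to 1 in cortical fibroblasts, in cortical astrocytes and for the regional difference of the genotype effect in fibroblasts. DESeq2 called 2 members in deep brain astrocytes (1 in edgeR), 3 over all deep brain nuclei (1), 3 over all cortical nuclei (0) and 1 for the difference between regions over all nuclei (0). With nuclei thinned to 800 UMIs the counts were 0 in deep brain endothelial nuclei (1 before), 0 over all deep brain nuclei (1) and 2 between the regions of control astrocytes (4). Clustering on all variable genes gave 2 in endothelial nuclei and 0 in deep brain astrocytes, where RLE size factors and leaving out doublets also gave 0.

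Pairing mice by the replicate number as a block called 1 member in mural nuclei (Col4a1), 3 in deep brain astrocytes and 2 over all cortical nuclei, and the block by age called 1 in mural nuclei and 2 in deep brain astrocytes. Only over all cortical nuclei did every same-numbered pair correlate at over 0.1 (4 of 6 pairs over all deep brain nuclei). Mice 1 to 4 of both genotypes also share their labelled age. Blocks moved no other member count by over 1.5 times. Among all genes, the block by number moved the calls in cortical endothelial nuclei from 22 to 124, in cortical astrocytes from 147 to 262, over all deep brain nuclei from 324 to 507 and over all cortical nuclei from 50 to 418.

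Leaving out each library in turn gave 0 to 1 members in deep brain endothelial nuclei (0 without control 6, mutant 4 or mutant 5), 0 to 4 in deep brain astrocytes (2 without control 3, 4 without mutant 6, 1 without mutant 4 or mutant 5 and 0 without any other), 2 to 4 between the regions of control astrocytes (2 without control 3 or control 5), 1 to 2 over all deep brain nuclei and 0 to 1 for the regional difference over all nuclei (2 and 1 without mutant 4). Among all genes, the settings listed with the processing gave 9 to 162 calls in deep brain endothelial nuclei (55 as reported), 6 to 124 in cortical endothelial nuclei (22), 1 to 25 in mural nuclei (10), 0 to 86 in deep brain fibroblasts (0), 6 to 220 between the regions of fibroblasts (29), 255 to 1059 in deep brain astrocytes (655), 12 to 303 in cortical astrocytes (147), 449 to 1610 between the regions of astrocytes (1279), 92 to 960 over all deep brain nuclei (324), 2 to 418 over all cortical nuclei (50) and 0 to 127 for the regional difference over all nuclei (1).

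Of the alternatives chosen after the data were seen, leaving out the Slc6a11-led cluster gave 0 of 11 members and 60 of 7873 genes between the regions of astrocytes and turned Sparc from 1.52 to -0.13 on the log2 scale. Deeper cortical libraries alone gave 2 members there. Between the genotypes of deep brain astrocytes, Col1a1 passed in the Slc6a11-led cluster alone and Col5a2 in the Slco1c1-led cluster alone. Leaving out 1 neuronal cluster of the deep brain gave 0 members and 52 genes over all deep brain nuclei, and 25 members and 9622 genes (16 and 7472 before) between the regions over all nuclei. Colgalt2 in endothelial nuclei passed in 18 of the 21 alternatives in which it could be tested (not with thinned nuclei, where it had too few counts), Col4a1, Col5a2, Lama3 and Colgalt2 between the regions of astrocytes in 11 of 14, 9 of 16, 15 of 16 and 15 of 16, and Col5a1 over all deep brain nuclei in 19 of 21.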
